A study of Homo sapiens with 6 samples.

Results

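The genes described here mark the epithelial or the mesenchymal state of a cell, and their chromatin was read in RKO cells from ATAC-seq peaks. They are 10 of the 20033 protein-coding genes of the RefSeq table of GRCh38.p14. The epithelial group has 4 genes (CDH1, EPCAM, GRHL2, ESRP1) and the mesenchymal group has 6 (VIM, ZEB1, ZEB2, SNAI2, TWIST1, CDH2). A peak was given to a gene when its midpoint lay in the gene body or within 10 kb of it, and this stretch is called the window of the gene. The genes were listed by name and not by their values. In the 3 DMSO samples 29, 36 and 32 peaks of 65865, 77194 and 64511 lay in the 10 windows, and in the 3 APH samples 39, 40 and 34 of 79807, 84510 and 70121.

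RKO is a human colon cancer cell line, grown here in low oxygen, and all 6 samples are of this line. Aphidicolin (APH) slows replication by inhibiting the replicative DNA polymerases. The APH samples had been treated with 0.2 µM for 16 h and the DMSO samples with the solvent, in 3 independent experiments, and both conditions shared a DNase step on the living cells and a freezing step before the assay. ATAC-seq uses the Tn5 transposase, which cuts and tags open chromatin, so that a peak is a stretch of DNA that was accessible in many cells. The assay is on a pool of cells, so that more cells with an open site and a more open site in each cell cannot be told apart. The peak value used below is the mean over the peak of the signal map that the authors made for each sample. The depth of the libraries is unknown, and no counting interval can be given.

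Epithelial cells adhere to each other through E-cadherin and keep apical junctions, while mesenchymal cells are loose and migratory and carry vimentin filaments. In the epithelial-mesenchymal transition, transcription factors of the ZEB, SNAI and TWIST families repress epithelial genes such as CDH1, while GRHL2, ESRP1 and the miR-200 microRNAs hold the epithelial state, and miR-200 and the ZEB factors repress each other. Carcinoma lines can rest anywhere between these states.

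The windows did not divide into an open and a closed group along this line. The summed peak signal per kb, which is the peak value times the peak length in kb, added over the peaks and divided by the length of the window, had a median of 2.11 over all protein-coding genes as the mean of the 6 samples. Above it were VIM with 6.49, EPCAM with 4.49 and SNAI2 with 3.88. Below it were ZEB1 with 1.94, CDH1 with 1.19, ESRP1 with 0.563 and GRHL2 with 0.540. ZEB2 with 0.0115 and CDH2 with 0.00362 were nearly without signal, and TWIST1 had no peak in any sample. Each group therefore held genes at both ends, with EPCAM far above GRHL2 and ESRP1 among the epithelial genes, and VIM and SNAI2 far above ZEB2, TWIST1 and CDH2 among the mesenchymal ones.

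The difference between the groups depended on how it was measured. In each sample the median of this measure was taken over the genes of a group, and the log2 of the epithelial median plus 1 minus that of the mesenchymal median plus 1 was computed. It was 0.03, -0.11 and -0.28 in the DMSO samples and -0.03, 0.01 and -0.01 in the APH samples, with a mean of -0.06 ± 0.11 (SD, n = 6). By this measure the samples lay on both sides of 0. The mean over the 6 samples was 0.56 for the gene body alone, 0.83 with 50 kb on each side and 0.78 with the longer gene lists described below, and it lay between -0.63 and 0.90 when a gene was left out, a setting chosen after the data were seen. With the mean over genes in place of the median it was below 0 in every sample, with -0.29, -0.23 and -0.32 in DMSO and -0.03, -0.08 and -0.12 in APH. For the median of peaks per 100 kb it was above 0 in every sample, with 0.25, 0.14 and 0.22 in DMSO and 0.37, 0.55 and 0.49 in APH. With the mean over genes the latter was 0.24, 0.24 and 0.07 against 0.40, 0.52 and 0.18, and the conditions overlapped. For the strongest peak within 1 kb of the start, with 0 where there was none, the median over genes gave 0 in every sample. The mean over genes gave -1.17, -1.47 and -1.40 in DMSO and -1.32, -1.08 and -1.51 in APH, and rests on EPCAM and ZEB1 alone. The groups thus have no order that holds over these measures.

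**Figure D1:**
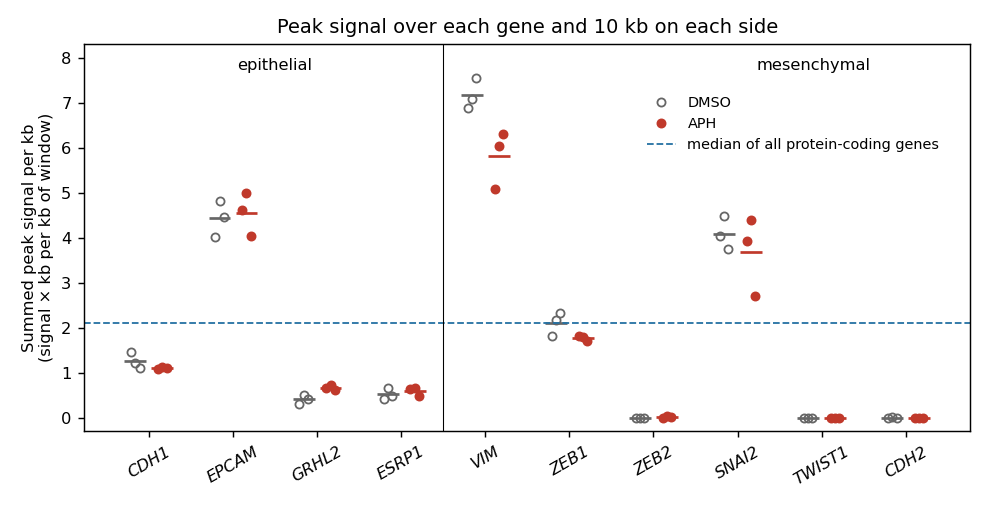
Summed peak signal per kb (y axis, peak value × kb per kb of window) of the 10 genes (x axis) in each DMSO sample (open circles) and APH sample (filled circles), with the mean of each condition as a bar. The dashed line is the median of all protein-coding genes, 2.11, and VIM, EPCAM and SNAI2 lie above it in every sample while ZEB2, TWIST1 and CDH2 lie at or near 0.

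An open gene start was found in few of the genes. Of the 19671 protein-coding genes whose strand was known, 55.0% had a peak within 1 kb of the start in all 6 samples and 39.9% had none in any sample. Among the 10 genes only EPCAM and ZEB1 had such a peak in all 6 samples, and none of the other 8 had a peak within 1 kb of the start in any sample. The RefSeq gene table gives a single start per gene, and these counts do not cover the starts of other transcripts.

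CDH1 encodes E-cadherin, the adhesion protein of epithelial junctions. Its window on chr16:68737292-68835537 and 10 kb on each side held 3 regions with a peak in all 6 samples, where a region is made of the peaks of all samples that overlap. The nearest peak to the start was 23.7 to 23.8 kb inside the gene in the DMSO samples, while APH replicate 1 had a weak peak 5.1 kb before the start and APH replicate 2 one 7.7 kb after it. The strongest region, with 131 ± 18.7 for DMSO and 112 ± 8.26 for APH (mean ± SD, n = 3), lay 106.5 kb after the start, beyond the end of CDH1 and 0.236 kb from the start of the neighbouring gene TANGO6. Within the gene body alone the summed signal of CDH1 was 0.266 per kb, against 1.19 in the whole window, so that most of the signal counted for CDH1 was at the start of its neighbour.

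EPCAM encodes an adhesion protein of the surface of most epithelia. It had the highest summed signal per kb of the epithelial genes, with 4.02, 4.80 and 4.46 in the DMSO samples and 4.61, 5.00 and 4.03 in the APH samples, and 69.7% of all protein-coding genes had less. Each sample had 3 peaks in its window. The peak at its start, on chr2:47369515-47370273, had values of 64.5, 53.5 and 70.5 in DMSO and 48.0, 58.5 and 52.1 in APH, well under the median of 149 over the gene starts that had a peak. The strongest region, on chr2:47360875-47361370, lay 8.2 kb before the start and 1.36 kb from the start of the pseudogene RN7SKP119. DMSO samples had 209 ± 44.7 and APH samples 237 ± 25.8 there (mean ± SD, n = 3), and 93.1% of all shared regions had a lower mean.

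GRHL2, a grainyhead factor that activates CDH1 and other junction genes, had its 5 shared regions inside the gene and none near its start. It had 5, 8 and 6 peaks in the DMSO samples and 9 in each APH sample, over a window of 209 kb. The peak nearest to the start was 9.1 kb inside the gene in every sample. The 5 shared regions had means over the 6 samples between 36.9 and 67.0, and the nearest other protein-coding start was 295 kb or more away from each of them, so these peaks were not at the start of a neighbouring protein-coding gene. ESRP1, a splicing regulator that sets epithelial splice forms, had 3 shared regions, with 3 peaks in each DMSO sample and 4, 5 and 3 in the APH samples. Its nearest peak was 17.5 to 17.6 kb before the start in 5 samples, outside the window, and 2.1 kb after the start in APH replicate 2. Its strongest region, with 75.7 ± 22.0 for DMSO and 67.4 ± 1.27 for APH (mean ± SD, n = 3), lay beyond the gene end, 6.34 kb from the start of DPY19L4.

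VIM encodes vimentin, the intermediate filament protein of mesenchymal cells. It had the highest summed signal per kb of the 10 genes, above 79.2% of all protein-coding genes, and within its body of 9.35 kb the value was 20.2 per kb. The signal lay in a pair of regions in the body of the gene. The stronger, on chr10:17230010-17230874, was 2.2 kb after the RefSeq start and 0.457 kb from the start of the antisense gene VIM-AS1, and ATAC-seq cannot assign it to either strand. Its values of 204, 202 and 197 in DMSO and 154, 161 and 171 in APH were above those of 88.5% of shared regions by their mean. The other, 3.3 kb after the start, had values of 112, 142 and 139 in DMSO and 89.9, 118 and 105 in APH.

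ZEB1, a zinc finger repressor of CDH1 and of the miR-200 genes, was the member with the strongest open start. The region at its start, on chr10:31318110-31319089, had values of 225, 233 and 289 in DMSO and 188, 192 and 234 in APH. A stronger region 2.7 kb before the start, on chr10:31315458-31315917, had values of 294, 368 and 311 in DMSO and 276, 289 and 241 in APH, and 97.4% of all shared regions had a lower mean. The other 5 shared regions of ZEB1, inside the gene, were weak, with means between 25.9 and 37.4. Its window of 231 kb held 11, 14 and 12 peaks in DMSO and 15, 13 and 10 in APH, and 95.1% of genes with windows of 0.5 to 2 times that length had as few or fewer. Over this length the summed signal was below the median of all genes in spite of the strong start, which shows how much this measure depends on the length of the window.

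SNAI2 encodes Slug, a repressor of the snail family. Its regions were 2 in every sample and both lay before the gene, 2.2 kb and 4.3 kb from the start, with none in the gene body. The first had 148, 165 and 142 in DMSO and 160, 201 and 107 in APH, and the nearest other protein-coding start, that of PPDPFL, was 131 kb away. Slug, vimentin and ZEB1 were thus the mesenchymal genes with strong regions within 3 kb of the start.

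ZEB2, the paralogue of ZEB1, had no peak in any DMSO sample or in APH replicate 1. APH replicates 2 and 3 had a single peak, 63.3 kb inside the gene, with values of 23.9 and 21.9. CDH2 encodes N-cadherin, which replaces E-cadherin in the transition, and its only peak was 137.8 kb inside the gene in DMSO replicate 2, with a value of 23.4. TWIST1, a basic helix-loop-helix factor, had no peak in its window, and its nearest peak was between 47.6 and 222 kb from the start. These single peaks were near the lowest value of any peak, which was 15.1 to 15.5 in the 6 samples.

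The 3 closed genes differ in length. Among genes with windows of 0.5 to 2 times the length, as few or fewer peaks were found in 2.92% for ZEB2, in 1.40% for CDH2 and in 15.4% for TWIST1. The absence of a peak says that no site passed the peak caller at this depth, and a weaker opening was not detectable.

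**Figure D2:**
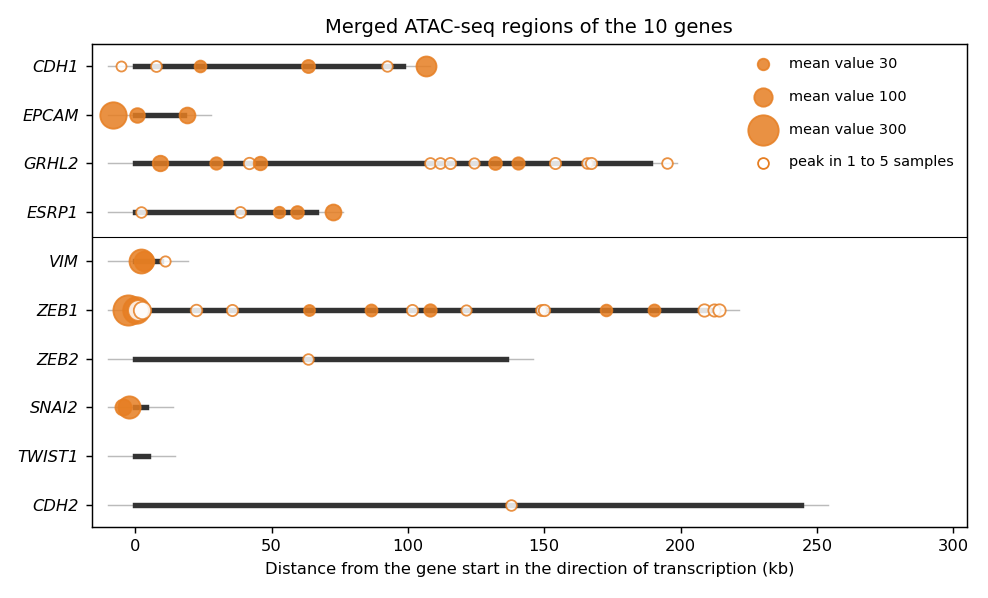
Position of each merged region (x axis, kb from the gene start in the direction of transcription) in the windows of the 10 genes (y axis), with the gene body as a thick line and the 10 kb on each side as a thin line. The area of a circle grows with the mean value, filled circles are the 25 regions found in all 6 samples and open circles those with fewer. The largest circles lie within 10 kb of the start in ZEB1, VIM, SNAI2 and EPCAM, and far from it in CDH1.

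The promoter windows of RefSeq, 250 bases before to 50 after a start on GRCh38.p14, were matched for 4 of the 10 genes (VIM, ZEB1, ZEB2, CDH2), all mesenchymal. They are shown to set the open start of ZEB1 beside the starts of the other 3, which had no peak in any sample. The strong regions of VIM, 2.2 and 3.3 kb after this start, lie outside its promoter window. Capitals mark CACCTG or CAGGTG, the E-box letters that ZEB and snail factors bind, which are the reverse complement of each other so that a search for both covers both strands.
ZEB1, chr10:31318167-31318466, plus strand: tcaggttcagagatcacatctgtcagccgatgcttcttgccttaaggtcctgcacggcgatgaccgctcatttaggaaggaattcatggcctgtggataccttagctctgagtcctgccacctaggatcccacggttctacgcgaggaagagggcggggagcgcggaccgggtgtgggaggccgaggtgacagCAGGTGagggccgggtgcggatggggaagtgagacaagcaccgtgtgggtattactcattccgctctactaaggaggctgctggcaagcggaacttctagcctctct
VIM, chr10:17227991-17228290, plus strand: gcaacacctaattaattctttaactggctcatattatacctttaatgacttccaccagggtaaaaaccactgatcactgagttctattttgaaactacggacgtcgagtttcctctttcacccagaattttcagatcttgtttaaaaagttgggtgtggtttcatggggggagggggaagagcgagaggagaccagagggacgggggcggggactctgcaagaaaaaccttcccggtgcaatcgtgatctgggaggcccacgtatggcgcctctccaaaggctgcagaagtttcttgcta
ZEB2, chr2:144520070-144520369, minus strand: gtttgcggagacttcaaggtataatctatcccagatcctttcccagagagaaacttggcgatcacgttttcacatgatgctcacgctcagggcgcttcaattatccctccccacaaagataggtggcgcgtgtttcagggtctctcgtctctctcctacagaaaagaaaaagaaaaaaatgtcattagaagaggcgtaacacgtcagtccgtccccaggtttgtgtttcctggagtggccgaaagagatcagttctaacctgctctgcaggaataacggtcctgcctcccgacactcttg
CDH2, chr18:28177081-28177380, minus strand: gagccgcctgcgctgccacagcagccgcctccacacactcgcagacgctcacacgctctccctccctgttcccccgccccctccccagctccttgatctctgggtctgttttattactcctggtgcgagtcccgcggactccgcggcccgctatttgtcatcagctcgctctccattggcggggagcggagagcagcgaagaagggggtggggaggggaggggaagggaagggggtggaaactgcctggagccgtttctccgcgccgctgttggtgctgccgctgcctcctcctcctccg

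The ZEB1 window held 1 such match and the other 3 held 0, while 20.6% of the 35116 promoter windows held at least 1. With any letters in the middle (CANNTG, which includes the matches above), ZEB1 had 2, ZEB2 1 and VIM and CDH2 0, and 68.7% of all windows had at least 1. The windows shown had 17 CpG in ZEB1, 10 in VIM, 14 in ZEB2 and 23 in CDH2, against a median of 14. RefSeq gives 7 windows for ZEB1, of which the first 3 overlapped the region open in all 6 samples, with 1, 0 and 3 matches and 17, 27 and 17 CpG. The second window of CDH2, also without a peak, had 4 CpG.

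With APH, GRHL2 was the only one of the 10 genes to pass the test. The change was tested on the summed signal of each window with limma on log2(signal × kb + 1), over the 17075 protein-coding genes with a mean of at least 1 peak, and 7 of the 10 genes passed this filter. ZEB2, TWIST1 and CDH2 did not and have no test. At an adjusted p below 0.05, 1 of the 7 rose, where 0.351% of all genes tested were higher, and 0 of the 7 fell, where 20.2% of all genes were lower. Over all genes the median change was -0.20 on the log2 scale, so that a gene near this value moved with the rest. No gene passed when DMSO replicate 3 or APH replicate 1 was left out.

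GRHL2 was the gene that rose. Its summed signal per kb was 0.299, 0.499 and 0.430 in DMSO and 0.661, 0.733 and 0.618 in APH, so that every APH sample exceeded every DMSO sample, as for 2.18% of the genes tested. The change was 0.73 on the log2 scale (SE 0.18), 1.66-fold, with an adjusted p of 0.0247 in limma over all genes. With each sample centred on its median over the genes the change was 0.94 and the adjusted p 0.235, and no gene passed. The adjusted p was 0.0562 without DMSO replicate 1, 0.0732 without DMSO replicate 3, 0.115 without APH replicate 1 and 0.0636 without APH replicate 2. The number of its peaks was 6.33 ± 1.53 in DMSO and 9 ± 0 in APH samples (SD, n = 3), without overlap between the conditions (two-sided exact permutation test, p = 0.1, which 3 against 3 cannot go below). The share of all genes without overlap in peak number was not computed. The samples as a whole had 65865, 77194 and 64511 peaks in DMSO and 79807, 84510 and 70121 in APH.

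GRHL2 lies on the long arm of chromosome 8, where the other shared regions had a median change of 0.06 against -0.06 over all shared regions, with 60.0% of them higher. The median change of the 386 genes tested there was -0.12. Relative to the genes of its own chromosome in each sample GRHL2 changed by 0.89, with an adjusted p of 0.277. ESRP1, on the same arm, changed by 0.20 (SE 0.23, limma adjusted p = 0.542), by 0.07 without DMSO replicate 1 and by 0.39 without DMSO replicate 2, and SNAI2, also there, by -0.18 (SE 0.19, limma adjusted p = 0.503). The SNAI2 change was 0.035 when the samples were centred, -0.32 without APH replicate 2 and 0.029 without APH replicate 3, so its sign was not settled. The part of the chromosome in the GRHL2 value was not tested further.

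The other epithelial genes did not pass. EPCAM changed by 0.04 (SE 0.12, limma adjusted p = 0.843), with overlapping samples. CDH1 had 1.46, 1.22 and 1.11 per kb in DMSO and 1.08, 1.14 and 1.11 in APH, a change of -0.18 (SE 0.13, limma adjusted p = 0.317) that was nearly that of the median gene. It was -0.07 without DMSO replicate 1 and -0.27 without DMSO replicate 3. This value mostly follows the region at the TANGO6 start.

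VIM had 6.89, 7.08 and 7.54 per kb in DMSO and 5.07, 6.04 and 6.30 in APH. All APH samples were below all DMSO samples, as for 39.1% of the genes tested. Its change of -0.31 (SE 0.11) had a limma adjusted p of 0.0643, and was -0.10 with the samples centred. ZEB1 had 1.81, 2.18 and 2.34 in DMSO and 1.82, 1.80 and 1.72 in APH, a change of -0.24 (SE 0.10, limma adjusted p = 0.0909), and -0.03 with the samples centred. Both thus moved little against the median of all genes, and neither passed the test. VIM did pass in limma without APH replicate 3 (adjusted p = 0.0392), with 50 kb on each side (0.0203) and with as many peaks kept in each sample (0.0471). ZEB1 did without DMSO replicate 1 (adjusted p = 0.0471), with the stronger peaks only (0.0419) and with as many peaks kept in each sample (0.0429).

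The peaks were also counted over the windows of each group. The epithelial windows together held 14, 17 and 15 peaks in DMSO and 20, 22 and 18 in APH, and the mesenchymal windows 15, 19 and 17 against 19, 18 and 16. Per 10000 peaks of the sample the epithelial windows had 2.13, 2.20 and 2.33 in DMSO and 2.51, 2.60 and 2.57 in APH. The mesenchymal windows had 2.28, 2.46 and 2.64 in DMSO and 2.38, 2.13 and 2.28 in APH, with overlap. Without GRHL2, which was left out after its values were seen, the epithelial numbers were 9, 9 and 9 against 11, 13 and 9, which is 1.37, 1.17 and 1.40 against 1.38, 1.54 and 1.28 per 10000 peaks. These numbers met at 9, and their values per 10000 peaks overlapped.

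Single regions were compared with limma on log2(value + 1) over the 50150 shared regions, those with a peak in every sample, of 102784 merged regions. Of these, 25 lay in the 10 windows, where 53 regions had a peak in any sample, with 14 in epithelial and 11 in mesenchymal windows. At an adjusted p below 0.05, 0% of all shared regions were called, and 0 of the 25. In data simulated with the level and spread of the samples, this fit found 0% of changes of 0.5 and 34% of changes of 1. The lack of calls therefore says little about changes of this size. At an unadjusted p below 0.05, 3 of the 25 were higher and 2 lower, against 2.46% and 10.1% of all shared regions. The median change was 0.17 over the epithelial regions, -0.02 over the mesenchymal ones and -0.06 over all shared regions. The epithelial genes differed among themselves, with a median of 0.33 over the 8 regions of GRHL2 and ESRP1, on chromosome 8, and of -0.14 over the 6 regions of CDH1 and EPCAM.

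Every APH sample exceeded every DMSO sample in 4 of the 25 regions, against 4.21% of all shared regions, and below them in 3, against 14.4%. The 4 higher regions were 3 of GRHL2 and 1 of CDH1, and the 3 lower regions belonged to VIM, ZEB1 and SNAI2. The lower regions were no more frequent than over the whole series, 3 of the 4 higher ones were in a single gene, and a difference between the groups was not tested.

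In GRHL2 the region 9.1 kb after the start had 46.5, 59.5 and 60.0 in DMSO and 90.6, 75.8 and 69.7 in APH, a change of 0.50 (SE 0.20, unadjusted p = 0.0225 and adjusted p = 0.329 in limma). The region at 29.5 kb had 25.9, 33.3 and 26.1 in DMSO and 44.1, 53.8 and 40.7 in APH, a change of 0.68 (SE 0.21, adjusted p = 0.290). The region at 132.1 kb had 27.8, 27.2 and 43.0 in DMSO and 44.4, 46.1 and 58.1 in APH, a change of 0.61 (SE 0.23, adjusted p = 0.316). These 3 regions had a peak in every sample. The region at 45.9 kb changed by 0.31 (SE 0.28) and that at 140.2 kb by -0.01 (SE 0.22), both with overlapping samples.

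In CDH1 the region 23.7 kb after the start, inside the gene, had 27.0, 31.7 and 27.4 in DMSO and 35.0, 38.8 and 32.1 in APH, a change of 0.29 (SE 0.20, limma adjusted p = 0.575). The region at the TANGO6 start moved the other way, by -0.22 (SE 0.15). In EPCAM the start changed by -0.24 (SE 0.20, limma adjusted p = 0.667) and the region 8.2 kb before it by 0.20 (SE 0.16, limma adjusted p = 0.642). In ESRP1 the region of smallest p, 52.6 kb after the start, had 23.7, 29.9 and 24.0 in DMSO and 38.3, 31.7 and 29.2 in APH, with overlap and a change of 0.34 (SE 0.20, limma adjusted p = 0.501). Of the CDH1, EPCAM and ESRP1 regions none had an unadjusted p below 0.05.

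In the mesenchymal genes the region of VIM 2.2 kb after the start had means of 201 ± 3.95 (DMSO) and 162 ± 8.71 (APH, SD, n = 3), a change of -0.31 (SE 0.13, unadjusted p = 0.0260 and adjusted p = 0.339 in limma). The ZEB1 start changed by -0.28 (SE 0.14, limma adjusted p = 0.437), with overlap, and the region 2.7 kb before it by -0.27 (SE 0.14, limma adjusted p = 0.435), without overlap. The 5 weaker ZEB1 regions inside the gene changed by -0.02 to 0.18. In SNAI2 the region 4.3 kb before the start had 78.6, 92.9 and 81.2 in DMSO and 71.5, 59.5 and 58.8 in APH, a change of -0.41 (SE 0.18, unadjusted p = 0.0389 and adjusted p = 0.370 in limma), and the region at 2.2 kb changed by -0.00340 (SE 0.19). None of these regions passed the adjusted test. When only peaks at or above the median value were kept, the median change over all shared regions was -0.15, against -0.06 with all peaks.

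**Figure D3:**
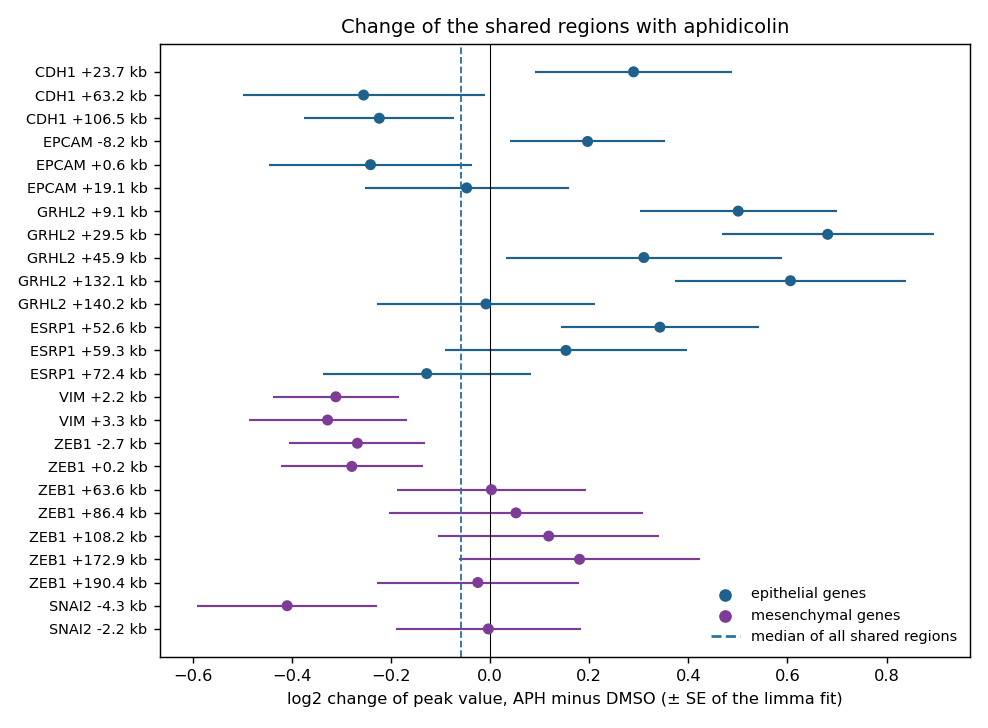
Change of the peak value in the 25 shared regions of the 7 genes that have any (x axis, log2, APH minus DMSO, with the SE of the limma fit), by gene and distance from the start (y axis). The dashed line is the median of all shared regions, -0.06, and the 3 GRHL2 regions at 9.1, 29.5 and 132.1 kb lie farthest to the right.

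**Figure D4:**
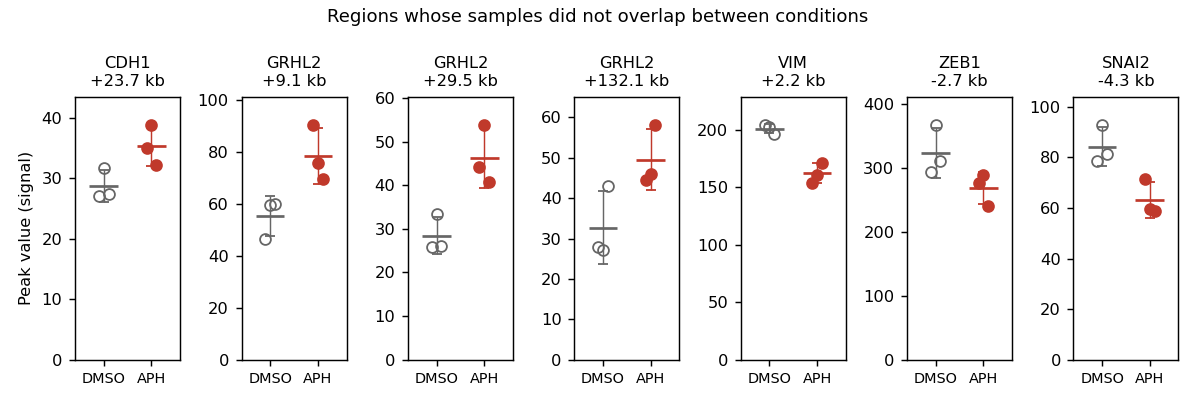
Peak value (y axis, signal, from 0) of each sample in the 7 regions whose APH and DMSO samples did not overlap, with the mean as a bar and the SD of 3 samples as an error bar. The CDH1 and GRHL2 regions are higher in APH and the VIM, ZEB1 and SNAI2 regions lower.

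No region of the 10 genes was present in all samples of one condition and absent from the other. A peak in all 3 APH samples and no DMSO sample was found in 0 of the 53 merged regions, against 1.11% of all merged regions, and the reverse in 0, against 0.184%. Regions with a peak in APH samples only numbered 16 and in DMSO samples only 3, against 19045 and 7228 of the 102784, and 14 of the 53 had a peak in a single sample, against 19685 of the 102784.

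Other genes of the same states were taken from lists. Of 41 further epithelial genes 17 had a peak at the start in all 6 samples, 2 in some and 22 in none, and of 36 further mesenchymal genes 15, 1 and 20. The shares were 41.5% and 41.7%, against 55.0% of all protein-coding genes. The epithelial list includes 5 microRNAs, whose start in the table is the hairpin and not the start of the transcript, and without them 16 of 36 genes (44.4%) had such a peak. The median summed signal per kb was 3.18 in the epithelial list, or 2.67 without the microRNAs, whose windows overlap within each cluster, and 1.48 in the mesenchymal list. As among the 10 genes, both lists held open and closed genes. KRT8, a keratin of simple epithelia, had an open start with a mean value of 300.2, and its partner KRT18 in 5 of the 6 samples. The remaining keratin of the list, KRT19, had no start peak in any sample.

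Highest in the epithelial list were MIR200C with 22.0 and MIR141 with 22.0 per kb, the splicing regulator ESRP2 with 18.9 and the tight junction gene CLDN4 with 14.8, and lowest were EHF with 0.218, OVOL2 with 0.366, PATJ with 0.385 and CDH3 with 0.605. Among the highest in the mesenchymal list S100A4 had 25.0, EMP3 20.4 and the receptor kinase AXL 17.0 per kb, all with an open start in 6 samples. POSTN had no peak, and LOX with 0.0342, QKI with 0.0459 and FBN1 with 0.0809 had next to none. These windows can hold starts of neighbouring genes, as that of CDH1 does.

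**Figure D5:**
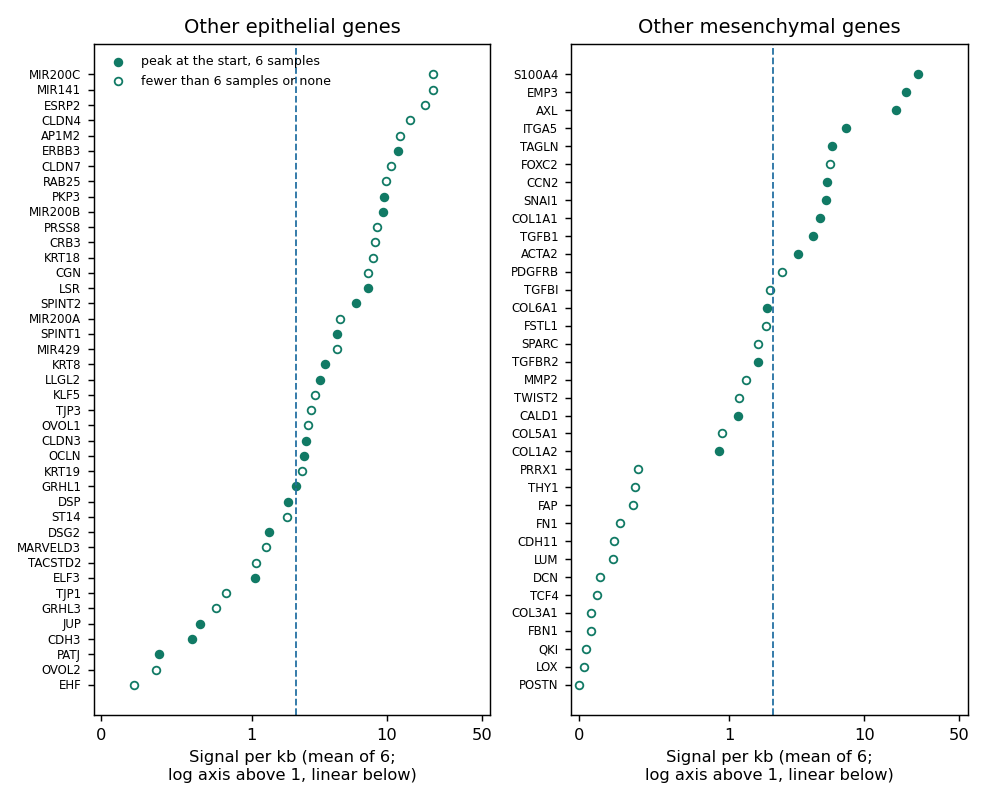
Summed peak signal per kb (x axis, mean of 6 samples, logarithmic above 1 and linear below) of the 41 other epithelial genes and 35 of the 36 other mesenchymal genes (y axes). Filled circles have a peak within 1 kb of the start in all 6 samples, the dashed line is the median of all protein-coding genes, 2.11, and both lists spread to both sides of it.

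The miR-200 genes stand opposite ZEB1 and ZEB2 in this circuit, and their mature sequences are shown because the seed, bases 2 to 8 in capitals, divides the family into 2 groups that span its clusters on chromosomes 1 and 12. The sequences are those of RefSeq on GRCh38.p14, and all 5 were matched.
hsa-miR-200b-3p: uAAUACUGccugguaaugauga
hsa-miR-200c-3p: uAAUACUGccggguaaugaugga
hsa-miR-429: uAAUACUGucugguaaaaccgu
hsa-miR-200a-3p: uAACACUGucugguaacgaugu
hsa-miR-141-3p: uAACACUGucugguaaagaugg

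The seed AAUACUG is shared by miR-200b, miR-200c and miR-429, and AACACUG by miR-200a and miR-141. Both clusters were near open chromatin in RKO. Before the first hairpin of the chromosome 1 cluster, MIR200B, a region at -0.915 kb had values of 59.0, 49.1 and 67.1 in DMSO and 51.3, 58.7 and 42.5 in APH, and one at -1.94 kb had a mean of 94.0. Before MIR200C on chromosome 12 a region at -1.91 kb had 220, 243 and 228 in DMSO and 196, 216 and 184 in APH, and a further region 7.02 kb after it was at the start of PHB2, 0.035 kb away. The changes of these 4 regions were between -0.25 and -0.20, and none passed the test. Open regions near the miR-200 genes and an open ZEB1 start were thus found in the same cell pools, while ZEB2 had almost no peak.

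With APH 1 of the 36 epithelial list genes tested rose and 5 fell, and 0 of the 32 mesenchymal genes rose and 3 fell, at a limma adjusted p below 0.05 against the 0.351% and 20.2% given above. The gene that rose was CDH3, which encodes P-cadherin and adjoins CDH1, with 0.439, 0.488 and 0.369 per kb in DMSO and 0.874, 0.803 and 0.656 in APH, a change of 0.83 (SE 0.19, adjusted p = 0.0215). Lower were AP1M2, CLDN7, ESRP2, ERBB3 and RAB25 in the epithelial list, by -0.47 to -0.27, and SNAI1, FOXC2 and EMP3 in the mesenchymal list, by -0.41 to -0.28. With the samples centred none of them passed, with a change of 1.04 for CDH3 (adjusted p = 0.235) and of -0.26 to -0.06 for the 8 others, and the median change of the lists, -0.19 and -0.06, lay at and above the median of all genes, -0.20.

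The label of the cells was checked at the starts of marker genes. Of 12 colon epithelium markers CDX2, KRT8 and LGR5 had an open start in all 6 samples, and KRT20 and KRT18 in some, while CDX1, VIL1, KRT19, HNF4A, CDH17, GPA33 and LGALS4 had none. No start was open in all samples among 5 leukocyte markers, with CD14 open in 1 sample, or among the 3 endothelial markers found in the table. Of 7 fibroblast markers, COL1A1 and COL1A2 were open in all 6 samples, PDGFRB in some, and COL3A1, DCN, LUM and PDGFRA in none. The 7 of 12 colon markers without a start peak stand beside 39.9% of all genes, and these starts did not set the colon list apart from the fibroblast list, with 25.0% and 28.6% open in all 6 samples.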

How the data were processed

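The authors deposited 1 peak list per sample with the signal of each peak, averaged over the peak from a map in which alignments were lengthened to 200 bp and tallied per 32-nt bin. The submitters' processing notes name BWA 0.7.12, MACS2 2.1.0 and hg38. The signal was not scaled to library size as far as the files show: times the number of bins, it was whole within the rounding of the deposited digits in 97.1% to 97.2% of peaks with length and value below 1000 (bp, signal). Depth per sample is unknown. A difference in depth would pass into the values unless the libraries had been reduced to equal read numbers, which the sources used here do not state.

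Groups came from the labels. Peaks were merged at an overlap of at least 1 bp, and a region's value is the length-weighted mean of its peaks. Genes came from RefSeq, with strand by symbol from GENCODE for 19671 of 20033 protein-coding genes. Regions and genes were fitted with limma 3.58.1 in R 4.3.3 on log2 values with a pseudocount of 1, an intensity trend and Benjamini-Hochberg adjustment over all features at 0.05, with fold changes on that scale. Peak numbers were compared with two-sided exact permutation tests. The fits were tested on simulated data with known log2 changes. The region fit found 0% of changes of 0.5, 34% of 1, 16% of -1 and 92% of 2. The gene fit found 30%, 68%, 64% and 94% of these. Among unchanged features the region fit called 1 and the gene fit 6. Alternatives covered pseudocount, centring, quantile normalization, merging, peak strength, window size, filters, leaving out each replicate and a replicate block. Scripts ran in Python 3.11.15 (pandas 2.3.3, numpy 2.4.6, scipy 1.17.1). No sequence was read by coordinates, since the genome given is of a different build.

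The genes, lists and tests were chosen with earlier results of these data known. All 10 genes are named, with the region at the start, the strongest region away from it and the region of smallest p of each. Of the lists, the 4 genes of highest and lowest signal per kb, those past the threshold and the miR-200 genes are named, and 1 gene of the mesenchymal list is not reported here. Other regions and KRT8, KRT18 and KRT19 were chosen after their values were seen.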

Additional observations from a re-analysis of the deposited data

How the results depend on the processing

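No region of the 10 genes passed in any setting except the replicate block, which gave 3 higher and 3 lower, with 1021 and 5583 of all shared regions against 0 and 0. Centring left 1 lower region in all, and leaving out a replicate 0 to 3. Among genes, against 60 higher and 3454 lower, the 3 kinds of centring and normalization gave 0 and 0, the replicate block 583 and 7890, the gene body alone 2 and 9, 50 kb on each side 101 and 6405, no filter 91 higher and the stronger peaks 19 higher. Leaving out a replicate gave 0 to 240 higher and 0 to 4080 lower, with 0 and 0 without DMSO replicate 3 or APH replicate 1. Correlations of the deviations of same-numbered samples were -0.00665, 0.477 and 0.515, so the numbers were not taken as pairs. GRHL2 was higher in all 16 settings and passed in 7 of them. With the stronger peaks only its change was 2.72 (limma adjusted p of 0.107). Its peaks in DMSO replicate 1, with 46.5 as the highest value, all lay under the cutoff of 49.7, so no signal was left in that sample. The size of this change therefore rests on the cutoff and the pseudocount. VIM and ZEB1 were lower in all 16 settings each and passed in 4 each, the block among them (adjusted p of 0.00702 and 0.0172). The change of CDH1 turned to 0.033 when centred, 0.011 with quantile normalization, 0.083 by chromosome and 0.16 in the gene body. EPCAM turned to -0.47 in the gene body, -0.00224 with 50 kb and -0.034 with stronger peaks, and with a replicate left out it was -0.036 to 0.12, below 0 without DMSO replicate 1 (-0.032) or APH replicate 2. ESRP1 turned to -0.025 with 50 kb and -0.17 with stronger peaks, and SNAI2 to 0.035 when centred, with -0.32 to 0.029 when a replicate was left out and above 0 without APH replicate 3. The epithelial minus mesenchymal difference was -0.18 with means over genes, 0.56 in the gene body, 0.83 with 50 kb, 0.34 for peaks per 100 kb and 0.78 with the longer lists. With a gene left out, a setting chosen after seeing the data, it was -0.31 without CDH1 or EPCAM, 0.14 without GRHL2 or ESRP1, 0.90 without VIM, ZEB1 or SNAI2 and -0.63 without ZEB2, TWIST1 or CDH2. The cause was not tested. The unknown depth limits what the absence of a peak can show.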
